A study of Danio rerio with 67 samples.

Results

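Rab GTPases are the small switch proteins that mark each compartment of the membrane traffic system, and their messenger RNAs were measured here in single olig2:eGFP+ cells of the adult zebrafish spinal cord. The members were all genes of the deposited count table whose symbol begins with rab and a digit, without the exchange factors, interacting and effector proteins whose names extend that stem. The rule found 71 of 32266 genes, of which 70 are Rab genes and 1, RAB3IL1, is an exchange factor for Rab proteins that the rule does not remove. RAB3IL1 is counted among the members and is named separately where it bears on a count. Symbols are those of a gene name table that often gives a zebrafish gene the spelling of its human counterpart. In 7 cases the same symbol stands for several members, 15 genes in all, and these are printed with their Ensembl gene identifier.

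All cells came from adult fish of the line Tg(olig2:eGFP), in which the promoter region of olig2, a gene of the oligodendrocyte and motor neuron lineages, controls the green fluorescent reporter. The lesion group (SDPL) was taken 7 days after transection of the cord, and the sham group had the same surgery with the cord left intact. Each group was 1 pool of pieces from 9 cords, with 35 sham and 32 lesion cells, so cells are not replicates of a condition, no test was made and every comparison below is a description of these cells. The sort takes any cell in which the transgene is active, and the cells were split by the level of plp1b, the zebrafish counterpart of the proteolipid protein of myelin, at 10000 CPM, where CPM are the reads of a gene scaled to the same total in every cell or class.

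Rab proteins cycle between an inactive form bound to GDP, held in the cytosol by the GDP dissociation inhibitors (GDI), and an active form bound to GTP on a membrane, where they recruit motors, tethers and fusion factors. Exchange factors switch them on at a given membrane and TBC-domain proteins switch them off. In oligodendrocytes this machinery moves lipid and protein to a very large myelin membrane, and in cultured rodent oligodendrocytes proteolipid protein is held in late endosomes and lysosomes before it is delivered to the cell surface. The RNA level of a Rab gene does not give the activity of its protein.

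The split gave 29 sham cells and 17 lesion cells with high plp1b, and 6 sham cells and 15 lesion cells with low plp1b. It fell in an empty range, since the highest cell under the threshold had 614 CPM of plp1b and the lowest above it had 19557 CPM. Reads on genes summed to 16157294, 2574346, 7530789 and 6137862 in these classes in the order sham high, sham low, lesion high and lesion low, with 245408 to 771417 reads per cell. Summed oligodendrocyte markers (12 genes) stood at 172460, 819, 159738 and 1509 CPM in that order. The low classes did not consist of 1 cell type by markers. Summed OPC (oligodendrocyte progenitor cell) markers stood at 887, 7305, 1134 and 6646 CPM, ependymo-radial glia markers at 1359, 6507, 1813 and 8304 CPM, and neuron markers at 404, 1792, 425 and 2123 CPM. The progenitor receptor PDGFRA was at 0 in all 4 classes. Of 13 ependymo-radial glia marker genes 7 had a read in sham low and 9 in lesion low cells. GFAP, FABP7, SLC1A3, nes and FOXJ1 were at 0 in sham low cells, and all of these but FOXJ1 had reads in sham high cells. Of 20 neuron marker genes 10 had a read in sham low and 16 in lesion low cells, and microglia and macrophage markers were at 0 in both low classes. Sham cells lay in plate columns 1 to 6 and lesion cells in columns 7 to 12, so plate position and treatment cannot be told apart.

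Of the 70 Rab genes, 9 had no read in any cell, 8 had reads but averaged under 5 CPM over the 4 classes, and 53 passed that filter. With RAB3IL1, 54 members were compared. The genes without a read were RAB19 ENSDARG00000099205, rab39al, rab25a, RAB26, RAB3A ENSDARG00000043835, rab44, RAB32 ENSDARG00000041165, rab38c and rab42b. Those under the filter were RAB20, rab25b, rab11al, rab3da, RAB27B, rab3db, RAB27A and RAB9B. RAB27A and RAB27B drive secretion of exosomes and lysosome-related organelles, and they had 2 and 109 reads over all 67 cells. Detection in a cell means 5 reads or more here. Only 6 Rab genes were detected in a majority of the cells, and 27 were detected in 1 to 10 cells. RAB5A ENSDARG00000018602, a Rab of early endosome fusion, was the most widely detected, in 53 of 67 cells (79.1%). RAB2A followed with 49 cells, RAB10 with 47, RAB14 with 44, RAB40B with 40 and RAB11B with 36.

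Per kilobase of exon, which allows levels of different genes to be set side by side, RAB2A had the highest level averaged over all 67 cells, 251 CPM per kb. RAB14 followed at 236, RAB10 at 205, RAB40B at 183 and RAB5A ENSDARG00000018602 at 172 CPM per kb. RAB11B was at 111 and RAB9A at 89.4 CPM per kb. These leading genes cover most stations of the pathway: RAB2A acts between endoplasmic reticulum and Golgi, RAB14 between Golgi and endosomes, RAB5A at early endosomes, RAB11B at recycling endosomes, RAB9A between late endosomes and Golgi, and RAB10 in delivery to the plasma membrane. RAB40B belongs to a branch of the family that carries a SOCS box and serves as substrate receptor of a ubiquitin ligase.

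**Figure D1:**
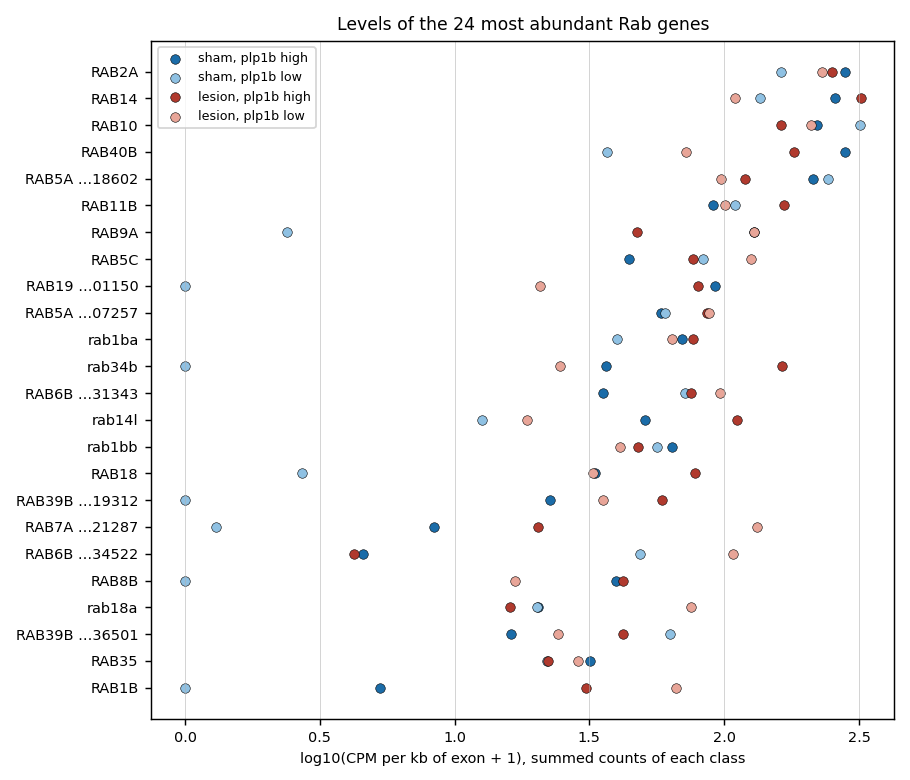
Level of the 24 most abundant Rab genes in each class, as log10 of CPM per kb of exon plus 1 from summed counts, with 1 point per class; shared symbols carry the end of their gene identifier. RAB2A, at 251 CPM per kb averaged over all cells, stands at the top, and RAB9A, RAB19, rab34b, RAB8B and RAB18 have their sham low point far to the left of their other points.

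The summed level of all Rab genes in CPM was similar in the 4 classes. TMM scaling was not applied to these sums. Its factors were 0.794 in sham high, 1.35 in sham low, 0.839 in lesion high and 1.11 in lesion low cells. Such factors would raise the sums of the high classes against those of the low classes. Per cell, the median sum was 4748 CPM in sham high cells (1516 to 9558), 4244 CPM in sham low cells (2448 to 5172), 4928 CPM in lesion high cells (2209 to 12524) and 5102 CPM in lesion low cells (2164 to 10340), and the ranges overlapped. The number of different Rab genes per cell was compared after thinning each cell to 301650 reads, which left out 3 sham high, 1 sham low and 3 lesion low cells that were shallower. The median was 10 genes in sham high cells (3 to 18), 11 in sham low cells (6 to 17), 15 in lesion high cells (3 to 32) and 15.5 in lesion low cells (5 to 21). Without thinning the medians were 11, 10.5, 15 and 16. The median number of all genes detected per thinned cell ran from 1404 in sham high and 1850 in sham low to 2203 in lesion high and 2538 in lesion low cells. Rab genes made up 0.689%, 0.556%, 0.704% and 0.614% of the detected genes at the median. More Rab genes per cell thus went with more genes of every kind, and the part of that difference in the Rab count was not tested.

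**Figure D2:**
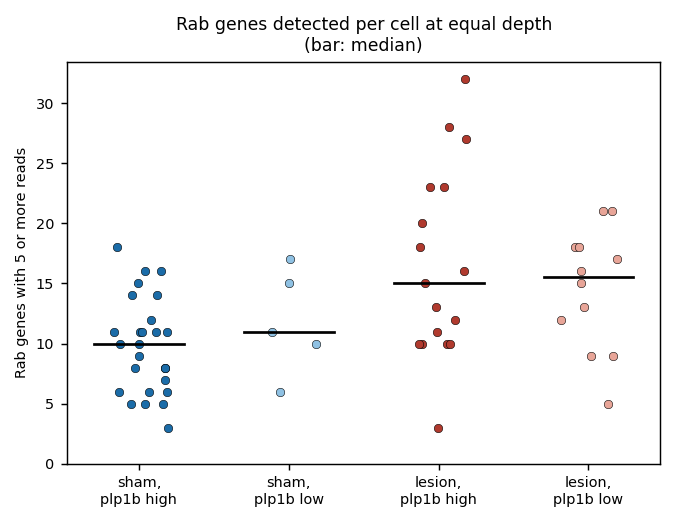
Number of Rab genes with 5 or more reads in each cell after thinning to 301650 reads, by class, with 1 point per cell and a bar at the median. Lesion cells had medians of 15 and 15.5, sham cells of 10 and 11, and the widest spread, 3 to 32, was in lesion cells with high plp1b.

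High and low plp1b cells were compared within each pool, as the log2 ratio of class CPM after adding 1 CPM, and a gene was counted when the ratio passed 2-fold. In sham cells 20 of 54 members were at least 2-fold higher in high plp1b cells (37.0%), against 37.5% of all 10113 genes tested, and 10 were at least 2-fold lower (18.5%), against 34.6% of all genes. In lesion cells 15 members were higher (27.8%), against 25.8% of all genes, and 20 were lower (37.0%), against 41.9%. Shares of the members on the higher side and on the lesion lower side lay near those of all genes, while the sham lower share was smaller. Of the 20 members higher in sham high cells, 13 had no read in the 6 sham low cells. The median ratio of the members was 0.15 in sham and -0.01 in lesion cells, beside 0.00 and -0.48 for all genes, and it was the same with genes at 0 set at their lower bound. Scaling by TMM moved the all-gene median of the lesion comparison by 0.34 and that of the sham comparison by 0.30 on the log2 scale. Under it the members split into 20 higher and 17 lower in lesion cells and 25 higher and 9 lower in sham cells. Of all genes under TMM, 30.1% were higher and 36.5% lower in lesion cells, and 42.6% and 27.3% in sham cells.

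Both pools put 10 of the 54 members at least 2-fold higher in high plp1b cells (18.5%), and 15.2% of all genes did so. The 10 are 50.0% of the members higher in sham cells and 66.7% of those higher in lesion cells, where the like shares of all genes were 40.4% and 58.6%. They were RAB8B, RAB8A, RAB22A, rab14l, RAB18, RAB19 ENSDARG00000101150, rab34b, RAB24, RAB40B and RAB3IL1. Both pools put 7 members lower (13%), and 19.1% of all genes did so. The 7 are 70.0% of the members lower in sham cells and 35% of those lower in lesion cells, beside 55.1% and 45.5% for all genes. These were RAB40C, RAB6B ENSDARG00000034522, rab11bb, RAB3C, RAB23, RAB30 and RAB34. A further 5 (9.26%) passed 2-fold in opposite directions, RAB9A, RAB7A ENSDARG00000021287, RAB33A, RAB4A and RAB1B, beside 15.0% of all genes. When each cell was left out in turn, 6 of the 10 higher members and 3 of the 7 lower members kept their ratio past 2-fold in both pools throughout. RAB8B, RAB8A, RAB24 and RAB3IL1 lost it at some omission among the first, and rab11bb, RAB3C, RAB23 and RAB34 among the second. The plate was also split into rows B to E and rows F to H, and for 15 of the 54 sham ratios and 17 of the 54 lesion ratios the sets of rows gave opposite signs. None of the 7 lower members passed 2-fold in both pools within rows F to H.

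**Figure D3:**
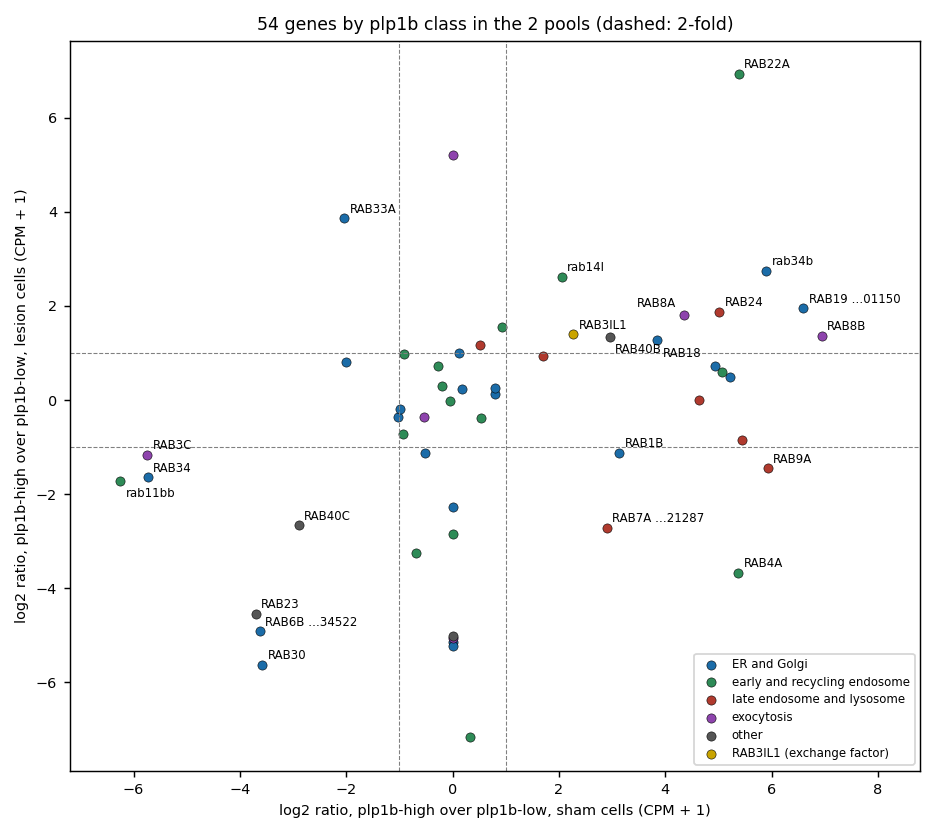
Log2 ratio of high over low plp1b cells in lesion cells against that in sham cells for the 54 members tested, coloured by traffic role, with dashed lines at 2-fold and names for members past 2-fold in both pools. The 10 named points at the upper right and 7 at the lower left have the same direction in both pools, and 5 lie in the opposite corners.

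Among Rabs of the early and recycling endosome, RAB22A (chromosome 6, 49552961 to 49581433, GRCz10) separated the classes most clearly. RAB22A acts in sorting and recycling of cargo from early endosomes. Its cells ranged from 0 through a median of 0 to 369 CPM in sham high, from 0 through 0 to 2.27 CPM in sham low, from 0 through 81.9 to 434 CPM in lesion high and from 0 through 0 to 1.81 CPM in lesion low. RAB22A was detected in 10 of 29 and 10 of 17 high cells and in 0 of 6 and 0 of 15 low cells, and a count of 0 allows shares of up to 45.9% and 21.8% in the low classes. The low cells held 1 read in each pool. The class levels were 57 CPM (95% Poisson interval 53.4 to 60.8) against 0.388 CPM in sham cells, a ratio of 147 (26.3 to 5802), and 141 CPM (133 to 150) against 0.163 CPM in lesion cells, a ratio of 866 (155 to 34220). Of the high cells, 11 in each pool lay above every low cell of the same pool. These intervals take reads as independent molecules and cover counting error only.

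RAB14 (chromosome 5, 62696924 to 62706503) and its relative rab14l (chromosome 5, 71388228 to 71394233) act, by their family, between the Golgi and endosomes. RAB14 cells had a median of 749 CPM in sham high (0 to 2010), 0 in sham low (0 to 941), 739 in lesion high (0 to 2290) and 198 in lesion low (0 to 1340). RAB14 was detected in 20 of 29, 2 of 6, 14 of 17 and 8 of 15 cells. The class ratio of high over low cells was 0.93 in sham and 1.55 in lesion cells on the log2 scale. It thus passed 2-fold in the lesion pool alone, but the sham ratio lay just under that cut. The sham ratio was 1.69 with TMM factors, 1.11 from means of per-cell CPM and 1.51 without the highest cells. It was 1.47 in plate rows B to E, 0.16 in rows F to H and 0.82 at equal depth. The lesion ratio stayed past 2-fold under every alternative computed. The difference between the pools was not tested. Cells of rab14l had medians of 0 (0 to 867), 0 (0 to 198), 143 (0 to 641) and 0 (0 to 271) CPM in the same order. High cells thus reached the highest values of rab14l in both pools, and all classes also held cells at 0. The class level of rab14l was 100 CPM (95.3 to 105) against 23.3 CPM (17.8 to 30.0) in the sham pool and 221 CPM (211 to 232) against 35.2 CPM (30.7 to 40.2) in lesion cells, with log2 ratios of 2.06 and 2.62. All reads of rab14l in sham low cells came from 1 of 6 cells.

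The genes of RAB5, which governs fusion at the early endosome, had ratios under 2-fold in both pools with CPM scaling. RAB5A ENSDARG00000018602 (chromosome 19, 21124137 to 21138045) had medians of 480 CPM in sham high cells (0 to 3651), 708 in sham low (28.4 to 1270), 319 in lesion high (0 to 1120) and 150 in lesion low (0 to 676). Its log2 ratio of high over low cells was -0.19 in sham and 0.30 in lesion cells. RAB5A ENSDARG00000007257 stood at -0.04 and -0.02, RAB5C at -0.92 and -0.72 and rab5b at -0.91 and 0.99. With TMM factors the lesion ratio of rab5b was 1.38. RAB35, a Rab of rapid recycling that has been tied to exosome release in a mouse oligodendroglial line, stood at 0.53 and -0.38 with detection in 19 of 67 cells. RAB11B, of the recycling endosome, stood at -0.27 and 0.73, and its direction turned with the plate rows. Rows B to E gave RAB11B -0.74 in sham and -2.13 in lesion cells, and rows F to H gave 6.78 and 3.06. RAB35 likewise stood at -3.26 and 4.79 in rows F to H, against 6.28 and -0.71 in the other set.

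The relatives of RAB11B, RAB11A and rab11bb, had negative ratios in both pools. RAB11A was at 28.5, 46.6, 11.6 and 118 CPM in sham high, sham low, lesion high and lesion low cells, with log2 ratios of high over low of -0.69 and -3.25. In sham high cells 97.6% of the RAB11A reads came from 1 cell, and the sham ratio was -5.72 in plate rows F to H against 4.47 in the other rows. rab11bb had 1 read in all 29 sham high cells against 205 reads in sham low cells, a ratio of 1287 (228 to 51064) with the low cells higher, and it stood at 18.7 against 63.5 CPM in lesion high and low cells. The lesion ratio of rab11bb was -1.71 and ran from -2.93 to 0.81 as single cells were left out. It turned to 4.97 in plate rows F to H, against -6.59 in the other rows. RAB15, a Rab of recycling endosomes known from neurons, was at 143 CPM in lesion low cells and had 4 reads elsewhere, all in sham high cells, and 96.7% of its reads in lesion low cells came from 1 cell. RAB21, which acts in integrin traffic, was detected in 6 of 67 cells, with all of its 32.4 CPM in sham high cells from 1 cell.

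In the group of endoplasmic reticulum and Golgi, RAB2A (chromosome 2, 22163621 to 22189873) was high in every class. Its cells had medians of 504 CPM in sham high (0 to 2244), 457 in sham low (6.08 to 725), 708 in lesion high (0 to 1525) and 544 in lesion low (0 to 1902). The log2 ratio of high over low cells was 0.80 in sham and 0.12 in lesion cells. Of the RAB1 genes, which act in transport from the endoplasmic reticulum to the Golgi, rab1ba stood at 0.81 and 0.26 and rab1bb at 0.18 and 0.23. With CPM scaling none of these 6 ratios passed 2-fold. The other RAB1 genes did pass it. RAB1B had no read in sham low cells and stood at 3.14 in sham and -1.12 in lesion cells. No sham cell had a read of rab1aa, and its lesion ratio was -5.14, or -0.23 without the highest cells. The sham ratios of RAB2A and rab1ba were 1.56 and 1.57 with TMM factors and 1.37 and 1.38 with DESeq2 factors. Within plate rows F to H the lesion ratios of rab1ba and rab1bb were 2.77 and 6.68, against -0.57 and -0.51 in rows B to E.

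RAB19 ENSDARG00000101150, rab34b and RAB18 were the Golgi and endoplasmic reticulum Rabs that were higher in high plp1b cells of both pools. RAB19 is among the less studied Rabs and has been placed at the Golgi. RAB19 ENSDARG00000101150 (chromosome 25, 3396011 to 3404384) had medians of 0 (0 to 953), 0 (0 to 0), 83.5 (0 to 298) and 0 (0 to 218) CPM in sham high, sham low, lesion high and lesion low cells. No sham low cell had a read, and 12 of 29 sham high cells had one or more. The class levels of 95.9 CPM (91.2 to 101) and 0 put RAB19 ENSDARG00000101150 at least 82.3-fold higher in sham high cells, with the low class set at 3 counts, and 83.0 CPM (76.6 to 89.8) against 20.7 CPM (17.2 to 24.6) gave a log2 ratio of 1.95 in lesion cells.

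RAB34 proteins act at the Golgi, in lysosome positioning and in the formation of cilia. The copy rab34b (chromosome 21, 26025757 to 26035080) had medians of 0 (0 to 550), 0 (0 to 0), 93.5 (0 to 1143) and 0 (0 to 349) CPM in the same order. It was detected in 7 of 29, 0 of 6, 9 of 17 and 3 of 15 cells. The class level of rab34b was 58.9 CPM (55.2 to 62.8) against 0 in sham cells, at least 50.6-fold higher, and 270 CPM (259 to 282) against 39.4 CPM (34.6 to 44.7) in lesion cells, a log2 ratio of 2.75. The other copy, RAB34, had no read in either high class, and 97.0% of its 52.0 CPM in sham low cells came from 1 cell.

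RAB18 acts at lipid droplets and the endoplasmic reticulum. RAB18 stood at 58.2 CPM (54.6 to 62.1) against 3.11 CPM (1.34 to 6.12) in the sham pool and at 139 CPM (131 to 148) against 57.2 CPM (51.4 to 63.5) in lesion cells, with log2 ratios of 3.85 and 1.27. In sham high cells 67.8% of the RAB18 reads came from 1 cell, and RAB18 was detected in 4 of 29 cells. The lesion ratio of RAB18 was 2.76 in plate rows B to E, whereas rows F to H gave -0.06. RAB39B ENSDARG00000019312 passed 2-fold in sham cells, at 29.5 CPM against 0 and at least 25.3-fold higher, and stood at 0.73 on the log2 scale in lesion cells. The other RAB39B gene, ENSDARG00000036501, stood at -2.01 in sham cells, but 91.1% of its sham low reads came from 1 cell and the ratio reached 1.15 without that cell.

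RAB6B ENSDARG00000034522 and RAB30 were the clearest members on the low side in this group. RAB6 proteins act in Golgi traffic, and RAB6B is known as the neuronal form in mammals. RAB6B ENSDARG00000034522 (chromosome 6, 27676798 to 27885945) had medians of 0 in all 4 classes and highest cells of 362, 502, 186 and 1386 CPM in sham high, sham low, lesion high and lesion low. It was detected in 1 of 29 and 2 of 17 high cells and in 2 of 6 and 7 of 15 low cells, so most cells of each class lacked it. The class level was 10.8 CPM (9.29 to 12.6) against 145 CPM (131 to 160) in the sham pool and 9.83 CPM (7.72 to 12.3) against 326 CPM (312 to 340) in lesion cells, with log2 ratios of -3.62 and -4.92. In plate rows F to H the sham ratio was 0.00, and both sham low cells with the gene lay in rows B to E. RAB30, a Golgi Rab, was detected in no high cell and in 2 of 6 and 5 of 15 low cells. RAB30 had 2 reads in sham high and 32 in sham low cells, a ratio of 100 (25.6 to 865) with the low cells higher, and in lesion cells it was at 0 against 48.2 CPM, at least 121-fold lower in high cells. The 2 sham low cells with RAB30 also lay in rows B to E, and its sham ratio in rows F to H was 0.00. RAB6B ENSDARG00000031343 was at 104, 212, 223 and 287 CPM in the 4 classes. Summed neuron, OPC and ependymo-radial glia markers were each higher in the low classes, as given above, though not every gene of these lists was. The part of these markers in the levels of the low-side genes was not tested.

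**Figure D4:**
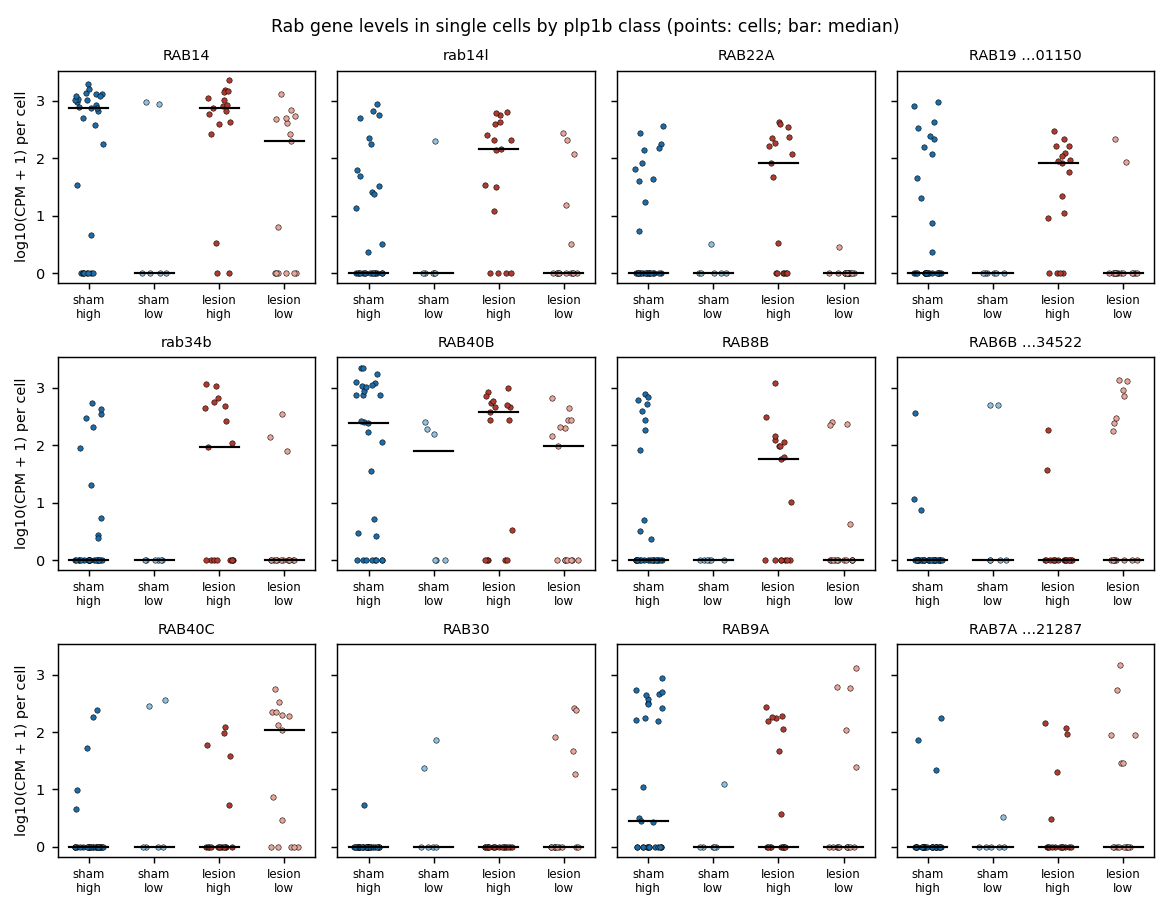
Level of 12 Rab genes in every cell as log10(CPM + 1), by class, with 1 point per cell and a bar at the median CPM. RAB22A is at or near 0 in all low plp1b cells and reaches 369 and 434 CPM in high cells, RAB6B ENSDARG00000034522 and RAB30 show the reverse order, and cells at 0 occur in all classes of nearly every gene.

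Of the 7 late endosome and lysosome Rabs tested, 6 passed 2-fold on the higher side and 0 on the lower side in sham cells. In lesion cells 2 were higher and 2 lower. Of all genes 37.5% were higher and 34.6% lower in sham cells, and 25.8% and 41.9% in lesion cells. The 6 sham ratios rest on 6 sham low cells. There RAB12, RAB24 and RAB32 ENSDARG00000029036 had no read, and RAB7A ENSDARG00000021287 and ENSDARG00000020497 had 1 and 3 reads. RAB32 ENSDARG00000029036 had reads in sham high cells alone. It passed the filter through that class, so its sham ratio could only be on the higher side. The difference between the pools was not tested. RAB9A (chromosome 9, 55097173 to 55115376) returns mannose 6-phosphate receptors from late endosomes to the Golgi. Its cells had medians of 1.80 (0 to 887), 0 (0 to 11.3), 0 (0 to 269) and 0 (0 to 1289) CPM in sham high, sham low, lesion high and lesion low. RAB9A was detected in 12 of 29, 1 of 6, 7 of 17 and 5 of 15 cells. In sham cells 12 high cells lay above every low cell, and in lesion cells 3 low cells lay above every high cell. The class levels were 178 CPM (172 to 185) against 1.94 CPM (0.631 to 4.53) in sham cells, a log2 ratio of 5.93, and 64.8 CPM (59.2 to 70.8) against 179 CPM (168 to 190) in lesion cells, a log2 ratio of -1.45. The lesion ratio ran from -1.78 to -0.62 as single cells were left out.

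RAB7A directs fusion of late endosomes with lysosomes, and 3 members carry its symbol. RAB7A ENSDARG00000021287 (chromosome 8, 50979968 to 50992153) was at 9.35, 0.388, 24.4 and 166 CPM in sham high, sham low, lesion high and lesion low cells. In sham low cells it had 1 read, which gave a ratio of 24.1 (4.25 to 956) for high over low cells, and in lesion cells the log2 ratio was -2.71. Of the RAB7A ENSDARG00000021287 reads in lesion low cells 65.4% came from 1 cell, and 6 of 15 cells were called. RAB7A ENSDARG00000087243 went with high plp1b in lesion cells, at 44 against 18.9 CPM and a log2 ratio of 1.18, and stood at 0.51 in sham cells. RAB7A ENSDARG00000020497 stood at 1.69 and 0.94, with only 3 reads in sham low cells and a sham ratio from 0.03 to 2.81 as single cells were left out.

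RAB24, a Rab of autophagy, was at 31.4 against 0 CPM in sham cells and 32.7 against 8.15 CPM in lesion cells, but was detected in only 4 of 67 cells. All of its reads in lesion high cells came from 1 cell, and the lesion ratio of 1.88 ran from -3.19 to 5.07 as single cells were left out. RAB12, which acts between recycling endosomes and lysosomes, was at 42.8 CPM in sham high cells and had no read in sham low cells, at least 36.7-fold higher. In plate rows F to H its sham ratio was 0.00. The lesion ratio of RAB12 was -0.86 and ran from -4.22 to 3.11 as single cells were left out. RAB32 ENSDARG00000029036, of lysosome-related organelles, was detected in 1 cell.

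Of the Rabs of exocytosis, RAB10 (chromosome 20, 47540173 to 47577051) was the most abundant. RAB10 serves delivery of vesicles from the Golgi and endosomes to the plasma membrane. Its cells had medians of 208 CPM in sham high (0 to 1123), 362 in sham low (224 to 773), 109 in lesion high (0 to 671) and 172 in lesion low (0 to 1038). All 6 sham low cells held RAB10, while every other class had cells at 0. The log2 ratio of high over low cells was -0.54 in sham and -0.37 in lesion cells, under 2-fold in both.

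RAB8B (chromosome 7, 29030347 to 29039711) and RAB8A carry vesicles from the Golgi to the plasma membrane and the cilium. RAB8B cells had medians of 0 (0 to 785), 0 (0 to 0), 57.6 (0 to 1196) and 0 (0 to 250) CPM in sham high, sham low, lesion high and lesion low. No sham low cell had a read of RAB8B, and 11 of 29 sham high cells did. The class levels of RAB8B were 122 CPM (117 to 128) against 0, at least 105-fold higher, and 130 CPM (122 to 139) against 49.7 CPM (44.3 to 55.6), a log2 ratio of 1.37. The lesion ratio of RAB8B ran from 0.33 to 1.90 as single cells were left out, and 54.8% of its reads in lesion high cells came from 1 cell. In plate rows B to E it was 0.53. RAB8A was detected in 3 of 67 cells, and its sham high level of 19.5 CPM came from 1 cell.

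RAB3 proteins regulate release of secretory vesicles and are best known from synapses. RAB3C had 1 read in sham high cells and stood at 55.9 CPM in sham low, 30.8 in lesion high and 70.2 in lesion low cells, with detection in 0 of 29, 1 of 6, 2 of 17 and 4 of 15 cells. All sham low reads of RAB3C came from 1 cell, and the sham ratio of -5.74 ran from -6.17 to 0.09 as single cells were left out. RAB3A ENSDARG00000056347 had reads only in lesion low cells, at 32.3 CPM and in 2 of 15 cells. The filtered-out rab3da likewise had reads only in lesion low cells, in 3 of 15 at 5 or more. RAB13, of tight junction traffic, had reads only in lesion high cells, at 35.7 CPM with detection in 2 of 17.

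The RAB40 genes took opposite sides. RAB40B (chromosome 12, 31924275 to 31951568) had medians of 247 CPM in sham high cells (0 to 2245), 79.4 in sham low (0 to 249), 386 in lesion high (0 to 990) and 97.0 in lesion low (0 to 660). In sham cells 14 of 29 high cells lay above every low cell, and in lesion cells 3 of 17 did. The class levels of RAB40B were 574 CPM (562 to 586) against 73.0 CPM (63.0 to 84.2) in the sham pool and 371 CPM (357 to 385) against 146 CPM (136 to 156) in lesion cells, with log2 ratios of 2.96 and 1.34. In plate rows B to E the lesion ratio of RAB40B was 0.46.

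RAB40C (chromosome 3, 26620990 to 26656559), of the same SOCS box branch, had medians of 0 (0 to 238), 0 (0 to 367), 0 (0 to 123) and 110 (0 to 561) CPM in sham high, sham low, lesion high and lesion low. It was detected in 3 of 29, 2 of 6, 4 of 17 and 8 of 15 cells, so lesion low was the single class in which a majority of cells held it. The class levels of RAB40C were 17.3 CPM (15.3 to 19.4) against 135 CPM (121 to 150) in the sham pool and 19.8 CPM (16.7 to 23.2) against 131 CPM (122 to 140) in lesion cells, with log2 ratios of -2.89 and -2.66. In plate rows F to H, where the sham low class had 3 cells, the sham ratio of RAB40C was 4.55. RAB23, an inhibitor of Hedgehog signalling, had its reads of the low classes in 1 cell of each pool.

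Genes were also grouped into families by Rab number, and the make-up of the families below by CPM per kb differed between the classes. Such a family can join distinct Rabs, such as RAB40B and RAB40C, as well as copies of the same Rab. RAB40C made 1.78% of the RAB40 total in sham high cells, 52.6% in sham low, 3.11% in lesion high and 35% in lesion low cells, and RAB40B made the rest. RAB18 made 62.4% and 83.7% of the total with rab18a in the high classes of sham and lesion, and 8.24% and 29.9% in the low classes. All rab18a reads in sham low cells, and most RAB18 reads in sham high cells, came from 1 cell of the class. RAB6B ENSDARG00000034522 made 7.03% and 3.40% of the RAB6 total in high cells and 33.2% and 48.1% in low cells. The RAB11 total was 90.9% and 90.8% RAB11B in high cells and 60.6% and 54.9% in low cells. These shares carry the limits of their genes given above. In plate rows F to H the sham ratio of RAB40C was 4.55 and the lesion ratio of rab11bb 4.97, with signs opposite to those over all rows.

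The RAB7 and RAB1 families differed along both lines. RAB7A ENSDARG00000021287 made 19.1% of the RAB7 total in sham high, 1.48% in sham low, 39.6% in lesion high and 90.9% in lesion low cells. Most of its lesion low reads came from 1 cell. RAB1B made 3.17% and 0% of the RAB1 total in sham high and low cells and 19.5% and 30.7% in lesion high and low cells. In the RAB5 family, RAB5A ENSDARG00000018602 made 63.9% and 57.6% of the total in sham high and low cells and 40.7% and 30.7% in lesion high and low cells. Reads that map equally well to several copies were not counted, and the loss may differ between copies.

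**Figure D5:**
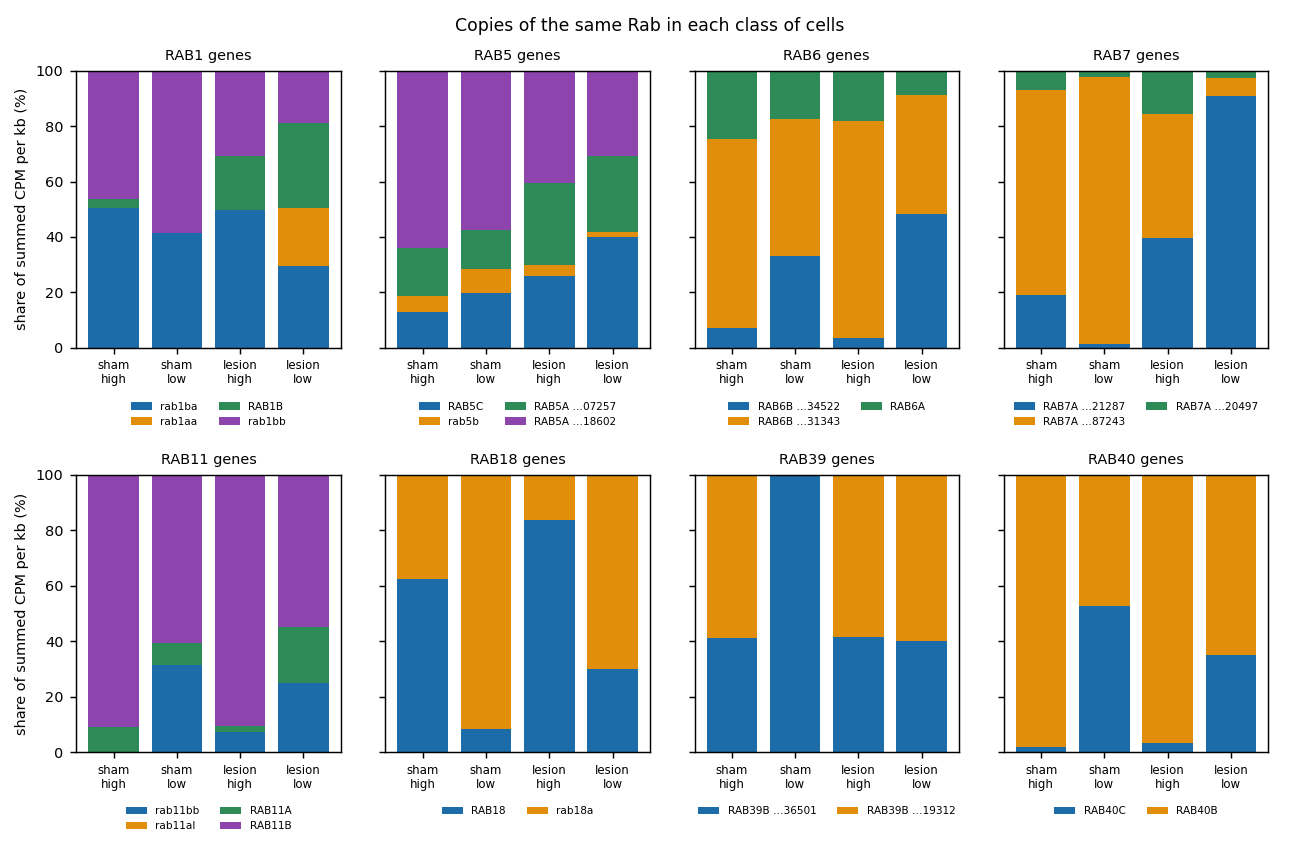
Share of each gene in the summed CPM per kb of its Rab family, in percent, for 8 families and the 4 classes, with bars stacked to 100%. A family holds genes of the same Rab number, which can be distinct Rabs. RAB40C makes 1.78% and 3.11% of its family in the high classes and 52.6% and 35% in the low classes, and RAB7A ENSDARG00000021287 makes 90.9% of its family in lesion low cells. Some shares rest on few cells.

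Lesion cells, taken 7 days after transection, were then compared with sham cells of the same plp1b class, though the low classes held markers of several cell types. These comparisons use the same 4 classes as those above and are not independent of them. Among high plp1b cells 16 of 54 members passed 2-fold on the lesion side (29.6%), against 24.1% of all genes, and 8 were lower (14.8%), against 25.1%, with a median ratio of 0.03 beside 0.00 for all genes. By traffic role, 7 of 21 Golgi and endoplasmic reticulum members were higher and 2 lower, 4 of 15 early and recycling endosome members were higher and 2 lower, and 2 of 7 late endosome members were higher and 3 lower. The lower late endosome members include RAB32 ENSDARG00000029036, which had reads in sham high cells alone and passed the filter through them.

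Those with the largest ratios among widely detected members were rab34b at 2.18, RAB39B ENSDARG00000036501 at 1.41, RAB22A at 1.29, RAB18 at 1.24, rab41 at 1.19, rab14l at 1.14 and RAB6B ENSDARG00000031343 at 1.1 on the log2 scale, where widely detected means that 40% of cells or more in the higher class held 5 reads. RAB9A, at -1.44, was the only widely detected member on the lower side, with 8 of 29 sham high cells above every lesion high cell. The ratio of RAB9A stayed past 2-fold under every alternative computed. The ratios of rab41, rab14l, RAB22A and RAB6B ENSDARG00000031343 came to 0.87, 0.95, 1.00 and 0.82 at the lowest as single cells were left out. In plate rows B to E alone rab34b stood at 0.23, RAB22A at 0.87, rab14l at 0.76 and RAB6B ENSDARG00000031343 at 0.19. In rows F to H alone RAB39B ENSDARG00000036501 stood at 0.56, RAB18 at 0.14 and rab41 at 0.15, so none of these 7 passed 2-fold in both sets of rows. RAB1B, of transport to the Golgi, was at 7.80 CPM in sham high cells (2 of 29 detected) and 53.7 CPM in lesion high cells (4 of 17 detected), a log2 ratio of 2.63. RAB4B, of rapid recycling, had no read in any sham cell and stood at 14.5 CPM in lesion high and 110 CPM in lesion low cells, with detection in 3 of 17 and 2 of 15 cells. RAB3IL1, an exchange factor in secretory traffic, was at 3.84 and 62.5 CPM in sham and lesion high cells, with all sham reads from 1 cell.

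Among low plp1b cells 25 members passed 2-fold on the lesion side (46.3%), against 43.1% of all genes, and 7 on the sham side (13%), against 26%. The median was 0.72 beside 0.47 for all genes. Sham low held 6 cells, and 16 of the 25 higher members had no read in it. Of the 25, RAB7A ENSDARG00000021287 had 1 read in sham low and 1018 in lesion low cells, a ratio of 427 (76.5 to 16881), with 6 lesion cells above every sham cell. RAB1B was at 0 and 118 CPM, at least 101-fold higher, with 7 of 15 lesion cells above every sham cell. RAB39B ENSDARG00000019312 was at 0 and 47.1 CPM, at least 40.4-fold higher, with 6 such cells. RAB11A stood at 1.32 and RAB6B ENSDARG00000034522 at 1.16, and these came to 0.55 and 0.74 at the lowest as single cells were left out. RAB6B ENSDARG00000034522 stood at 0.05 in plate rows B to E, and RAB11A at 0.89 in rows F to H.

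Of the 7 members on the lower side in lesion low cells, 2 met the criteria for naming given below, and these are early endosome genes. Among the 15 early and recycling endosome members 5 were higher and 2 lower, where 43.1% and 26% of all genes were. RAB5C stood at 82.5 and 125 CPM per kb in sham low and lesion low cells, and RAB5A ENSDARG00000007257 at 59.2 and 86.6. RAB5A ENSDARG00000018602 was at 647 CPM (616 to 679) in sham low and 256 CPM (244 to 269) in lesion low cells, a log2 ratio of -1.33, and it was detected in 6 of 6 and 12 of 15 cells. rab5b had medians of 159 CPM in sham low cells (0 to 326) and 0 in lesion low cells (0 to 148), with detection in 4 of 6 and 3 of 15 cells and a log2 ratio of -2.63. The same genes stood at -0.84 and -0.73 among high plp1b cells, under 2-fold. Both low-class ratios stayed past 2-fold under every alternative computed. OPC markers summed to 7305 and 6646 CPM and ependymo-radial glia markers to 6507 and 8304 CPM in sham low and lesion low cells. Per cell, the OPC sum had a median of 8748 CPM in sham low (1897 to 11254) and 2029 CPM in lesion low cells (0 to 27574). The ependymo-radial glia sum had medians of 4930 and 7126 CPM. The low classes thus differed in the per-cell medians of these marker sums, while the ranges overlapped. The part of cell make-up in these ratios was not tested.

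The genes that act on Rab proteins were taken from a list of 145, of which 90 passed the filter. It holds GDI and prenylation factors, exchange factors, activating proteins, most of them with a TBC domain, and effectors. In sham cells 51 were at least 2-fold higher in high plp1b cells (56.7%) and 17 lower (18.9%), against 37.5% and 34.6% of all genes. In lesion cells 35 were higher (38.9%) and 32 lower (35.6%), against 25.8% and 41.9% of all genes. The same shares of all genes stand behind the counts by class of regulator that follow. Of the 21 exchange factors tested, 16 were higher and 2 lower in sham cells and 7 higher and 6 lower in lesion cells. Of the 27 activating proteins, 17 were higher and 4 lower in sham cells and 15 higher and 9 lower in lesion cells. Of the 36 effectors, 15 were higher and 10 lower in sham cells and 13 higher and 15 lower in lesion cells. In both pools 19 were higher (21.1%) and 8 lower (8.89%), against 15.2% and 19.1% of all genes, and the higher ones held 9 activating proteins, 6 exchange factors and 4 effectors. For the median, the list stood at 2.10 in sham and 0.30 in lesion cells, beside 0.00 and -0.48 for all genes. Many of the 51 higher in sham cells had no read in the 6 sham low cells. Some of them, such as TBC1D14 and RABGGTA, were detected in only 1 of 29 sham high cells. Alternatives were not computed for this list.

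Among the most abundant of these genes per kb were GDI2, at 195 CPM per kb, RABGGTB at 73.1 and mical3b at 47.1. GDI2 extracts Rab proteins from membranes, and RABGGTB is the catalytic subunit of the enzyme that attaches their lipid anchor. GDI2 was at 399, 379, 695 and 544 CPM in sham high, sham low, lesion high and lesion low cells, and neither of its ratios of lesion over sham passed 2-fold, at 0.80 and 0.52. MICAL proteins are actin-oxidising enzymes, and some of them bind RAB8 and related Rabs. mical3b followed plp1b in both pools, at 353 CPM in sham high cells (18 of 29 detected), 0 in sham low cells, 438 CPM in lesion high cells (16 of 17 detected) and 3.42 CPM in lesion low cells (2 of 15 detected). EXOC6, the exocyst subunit that binds RAB11, was at 212, 0.388, 174 and 33.4 CPM in the same order. CCZ1, a part of the exchange factor of RAB7, was at 134.8, 43.5, 38 and 14.3 CPM, with log2 ratios of 1.61 and 1.35. It was detected in 8 of 29, 1 of 6, 5 of 17 and 3 of 15 cells. TBC1D10B, an activating protein, was at 92.0, 0.388, 141 and 44.2 CPM. Of the 8 that were lower in both pools, RILPL2, an effector of RAB8 and related Rabs in ciliary traffic, was at 16.3, 40.8, 57.2 and 126 CPM, with ratios of -1.27 and -1.13. RILPL2 was detected in 1 of 29, 1 of 6, 4 of 17 and 5 of 15 cells, so its sham ratio rests on 1 detected cell in each class. rims2b, whose family binds RAB3 at sites of vesicle release, had no read in sham high cells and stood at 50.5, 1.73 and 129 CPM in the other classes. In these it was detected in 1 of 6, 1 of 17 and 4 of 15 cells.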

How the data were processed

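RNA of single sorted cells was sequenced, and the values deposited by the authors are raw counts, with genes in rows and cells in columns. Per the submitters' processing notes, reads were handled with bcl2fastq 2.19.1, GSNAP and featureCounts 1.6.2, while the version in the header of the file is 1.6.3. Per the file headers, Ensembl release 87 genes on GRCz10 were counted without strand and at a mapping quality of at least 1, so antisense partners are not separable and near-identical copies may have lost reads. No molecular identifiers are recorded.

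Counts were summed over the cells of each class and scaled to CPM, with exact 95% Poisson intervals. Ratios are log2 after adding 1 CPM, for the 10113 genes with a mean of at least 5 CPM over the 4 classes. Folds against a class at 0 use 3 counts over that class as the floor. Ratios against 1 to 3 reads carry exact conditional intervals. Shares allowed by a count of 0 cells are exact Clopper-Pearson bounds. The calculation was tested on simulated Poisson counts of the classes, without variation between cells. That covers the arithmetic and not the spread between cells. Python 3.11.15, numpy 2.4.6, pandas 2.3.3 and scipy 1.17.1 were used, and edgeR 4.0.16 (TMM) and DESeq2 1.42.0 gave scaling factors only.

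The members and lists were chosen with earlier results of these data known. Genes named for a comparison were up to 8 a direction with the largest ratio past 2-fold, 20 CPM or more in the higher class, where 40% of cells or more had to hold the gene, and an equal direction in per-cell means and in either set of plate rows (B to E, F to H). The most abundant 2 of each role, the 4 most abundant regulators and up to 4 regulators past 2-fold in both pools, taken here by CPM per kb, were also to be named. A regulator that this rule names is not reported here. The order among the latter, rims2b, TBC1D10B and other members were chosen after their values were seen. Alternatives covered scaling, weighting of cells, prior, filter, plp1b threshold, plate rows, depth, possible doublets and single cells. No sequence tables were used. The Ensembl genes for RAB38 and rab3b were not analysed here.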

Additional observations from a re-analysis of the deposited data

How the results depend on the processing

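Only counts on the lower side moved by over 1.5 times. The number of members lower in high plp1b cells moved in sham cells from 10 to 6 when each gene lost its highest cell in every class, to 6 with a filter of mean 20 CPM and to 6 in plate rows F to H. In lesion cells it moved from 20 to 12 and 13 under the first and second of these. The share of all genes that were lower in sham cells also fell without the highest cells, and it went from 34.6% to 23.9% in rows F to H. Among lesion cells the all-gene share went from 41.9% to 35.5% without the highest cells. The filter of 20 CPM left 39 of the 54 members, so its counts rest on fewer members. With it, 39.4% of all genes were lower in sham and 40.3% in lesion cells. The filter of 20 CPM, which tests fewer genes, took the lower counts of lesion against sham from 8 to 4 in high cells and from 7 to 4 in low cells. The members lower in both pools went from 7 to 4 without the highest cells, of which 3 are among the 7 and RAB11A is not, to 4 of the 7 with that filter, and to 1 in rows F to H, which is RAB11A and none of the 7. The other alternatives kept all these counts within 1.5 times. Among them were TMM and DESeq2 factors, priors of 0.1 and 5 CPM, thresholds of 5000 and 20000 CPM and equal depth. No cell lay between 614 and 19557 CPM of plp1b, so the threshold of 5000 CPM could change no class. The threshold of 20000 CPM moved only the lesion cell at 19557 CPM, so it could not change a ratio within sham cells. Each omission of a single cell also kept the counts within 1.5 times. However, only 6 of the 10 higher and 3 of the 7 lower members stayed past 2-fold in both pools through every omission. Some log2 ratios reversed, and the cause was not tested. In sham cells, without the highest cells, RAB39B ENSDARG00000036501 went from -2.01 to 0.17 and RAB33A from -2.04 to 0.25. In rows F to H the sham ratios of RAB40C went from -2.89 to 4.55, of RAB3C from -5.74 to 0.18 and of RAB33A to 0.18, and the lesion ratios of RAB18 from 1.27 to -0.064 and of rab11bb from -1.71 to 4.97. In rows B to E the lesion ratio of RAB8A went from 1.82 to -0.79, and lesion over sham in high cells of RAB7A ENSDARG00000021287 from 1.3 to -0.90. Over single-cell omissions the sham ratios ran from -2.99 to 1.15 for RAB39B ENSDARG00000036501, from -6.17 to 0.087 for RAB3C, from -5.36 to 3.57 for RAB33A and from -4.10 to 0.087 for RAB23, and the lesion ratios from -2.93 to 0.81 for rab11bb, from -6.50 to 0.17 for RAB4A and from -3.19 to 5.07 for RAB24. Of 1638 values of the reported ratios under alternatives, 922 stayed inside the counting interval of the reported value, 700 left it without a reversal and 16 reversed. Over all 54 members and the 4 comparisons, 25 of the 121 ratios past 2-fold reversed under some alternative, and 63 of 216 ratios had opposite signs in the 2 sets of plate rows. Ratios that fell to 0 or under 2-fold are not counted as reversed. Past 2-fold under every alternative stayed 11 of 20 higher and 1 of 10 lower in sham cells, and 6 of 15 and 7 of 20 in lesion cells. For lesion over sham, 4 of 16 higher and 1 of 8 lower stayed in high cells, and 10 of 25 and 2 of 7 in low cells. rab14l, RAB22A, rab34b and RAB19 ENSDARG00000101150 passed 2-fold in both pools under every alternative computed. No paired analysis was possible because cells carry no replicate number shared between groups. A class of 6 sham low cells limits each comparison that uses it, since a gene in none of them can still be in up to 45.9% of such cells.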
